A study of Mus musculus with 6 samples.

Results

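The 10 genes described here encode receptors of the tumour necrosis factor (TNF) receptor superfamily that T cells are known to use: Tnfrsf1a, Tnfrsf1b, Tnfrsf4, Tnfrsf8, Tnfrsf9, Tnfrsf11a, Tnfrsf18, Cd27, Fas and Tnfrsf10b. They were taken by name from the 16281 genes of the count table, and all 10 were among the 11698 genes with enough reads to be tested. The receptors of this superfamily sit on the cell surface, bind ligands of the TNF superfamily through cysteine-rich repeats and recruit TRAF adaptor proteins that switch on NF-κB and MAP kinases. Receptors with a death domain in their cytoplasmic tail, such as Fas, can instead assemble complexes that activate caspases. On CD8+ T cells, OX40, GITR, CD30, 4-1BB and CD27 act as costimulators that adjust survival, proliferation and effector function after the antigen receptor has been triggered.

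Gene expression was measured by poly(A) RNA sequencing of mouse CD8+ T cells, and the comparison asks how blocking the histone demethylase LSD1 alters their transcriptome. All cells came from spleens of C57BL/6 mice of genotype Tg(TcraTcrb)1100Mjb (OT1), a transgene that fixes the T cell receptor to 1 ovalbumin peptide. Every culture was stimulated for 48 h with anti-CD3 and anti-CD28, each at 2 μg/ml, in 20 ng/ml IL-2, and then expanded in IL-2 for 3 days. The GSK group (3 samples) received 0.5 μM GSK2879552, an irreversible LSD1 inhibitor, through activation and expansion, and the Veh group (3 samples) received vehicle, with each group drawn from 3 mice per the study's figure legends. The anti-CD3 and anti-CD28 antibodies stand in for antigen, so these values describe cultured T cells without ovalbumin or tumour.

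Each sample held 18288447 to 19846720 counted reads. The CD8 T cell markers summed to 3470 to 3552 CPM (read counts scaled to a common library size) in Veh and 3511 to 3633 CPM in GSK, with Cd3d, Cd3e and Cd3g lower (log2 fold changes -0.16, -0.23 and -0.38) and Cd2 and Thy1 higher (0.15 and 0.23) among the 7 tested. Of the markers of other lineages, Cd4 held 0.473 to 1.79 CPM and Cd79a no more than 0.557 CPM over the 6 samples. Others were higher, with Zbtb7b at 33.7 to 49.4 CPM and Ikzf2 at 14.1 to 29.2 CPM. Cd68 held 7.41 to 10.9 CPM and Cd79b 4.64 to 7.56 CPM. Summed marker levels in Veh and GSK were 68.8 to 82.3 and 59.4 to 60.6 CPM for CD4 and regulatory T cells, 6.36 to 8.16 and 7.93 to 9.57 CPM for B cells, 14.7 to 20.9 and 11.5 to 15.0 CPM for myeloid cells, and 1.63 to 2.39 and 2.48 to 3.78 CPM for NK cells. Single genes of these lists passed the test in both directions, among them Ikzf2 (log2 fold change -0.71), Itgax (-1.37), Fcgr3 (-1.21), Cd22 (2.65) and Cd40lg (1.52). Cd22 and Cd40lg reached the read minimum for testing in all 3 samples only in GSK, and Fcgr3 only in Veh. This favours a gene that is high in the group that reached the minimum. The part of these genes in the receptor differences was not tested. In bulk RNA, fewer cells of a type and less RNA per cell cannot be told apart. Kdm1a, which encodes LSD1, did not pass the test (log2 fold change -0.092, SE 0.055, adjusted p = 0.22), and its mRNA does not measure the block of an enzyme by a drug.

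In GSK against Veh, edgeR's quasi-likelihood test put 5 of the 10 receptor genes higher and 3 lower (adjusted p under 0.05). Tnfrsf1b, Tnfrsf8, Tnfrsf9, Tnfrsf11a and Tnfrsf10b rose, Tnfrsf4, Tnfrsf18 and Fas fell, and Cd27 and Tnfrsf1a did not pass. Over all tested genes, 16.6% were higher and 15.5% lower by the same rule, and among the 8692 genes with a mean of at least 10 CPM the shares were 20.2% and 16.5%. Leaving out 1 sample at a time left 2 to 4 receptors higher (2 without GSK replicate 1, 4 without Veh replicate 3 and 3 without any one of the others) and 3 or 4 lower (4 without GSK replicate 2). When a fold change over 1.5 was also required, 1 receptor was called higher (Tnfrsf11a, against 2.22% of all genes) and 1 lower (Tnfrsf4, against 4.09%). The 3 GSK values lay entirely above or below the 3 Veh values for 7 receptors, against 46.7% of all tested genes. The log2 fold changes ran from -0.71 to 1.28 with a median of 0.031, beside -0.0039 for all tested genes. Summed over the 10 genes, Veh samples held 851 to 885 CPM and GSK samples 878 to 910 CPM, so the summed levels overlapped while single receptors moved in opposite directions.

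**Figure D1:**
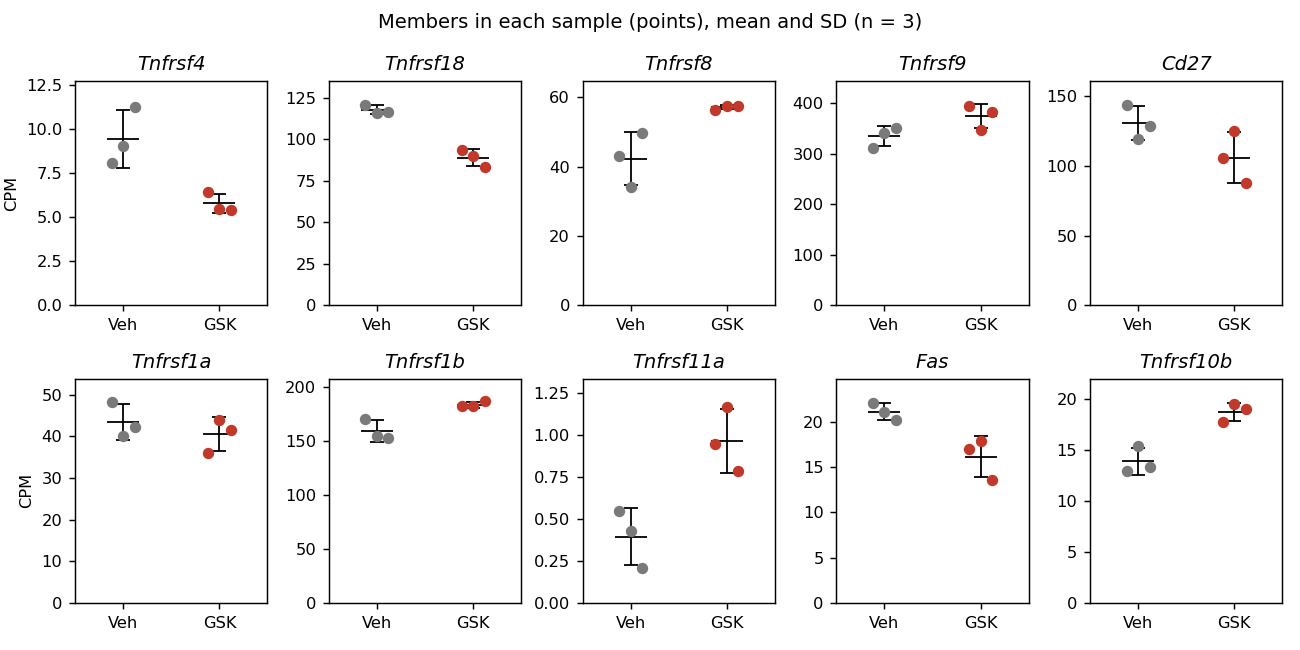
CPM of each receptor gene (vertical axis, linear and starting at 0) in the 3 Veh samples (grey points) and the 3 GSK samples (red points), with the mean as a line and the SD as bars. Tnfrsf4, Tnfrsf18 and Fas have all GSK points below the Veh points, whereas Tnfrsf1b, Tnfrsf8, Tnfrsf11a and Tnfrsf10b have them above, and the groups overlap for Tnfrsf9, Cd27 and Tnfrsf1a.

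Of the 10 genes, 5 lie on chromosome 4, and 4 of these form pairs of close neighbours. Tnfrsf1b and Tnfrsf8, both on the minus strand, are separated by 20.266 kb, and both rose. Tnfrsf4 and Tnfrsf18, both on the plus strand, are separated by 9.551 kb, and both fell. The 250 bases before the start listed in the RefSeq promoter table for Tnfrsf1b and Tnfrsf8 are printed as the promoters of the neighbours that rose together, and that of Fas as a promoter of a gene that fell. All 3 are from GRCm38 and read 5′ to 3′ on the gene's own strand, with capitals marking the letters of an NF-κB consensus or of an AP-1 motif (TGANTCA) and positions counted back from that start. For Fas it lies inside the RefSeq gene, so the window ends with the first bases of the gene. The windows are chr4:145246871-145247120 (minus strand), chr4:145315165-145315414 (minus strand) and chr19:34290409-34290658 (plus strand).
Tnfrsf1b: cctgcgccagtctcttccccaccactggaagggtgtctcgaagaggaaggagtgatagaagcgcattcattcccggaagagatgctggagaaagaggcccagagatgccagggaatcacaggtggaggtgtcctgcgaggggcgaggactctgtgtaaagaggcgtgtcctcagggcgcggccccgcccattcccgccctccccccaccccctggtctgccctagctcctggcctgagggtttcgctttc
Tnfrsf8: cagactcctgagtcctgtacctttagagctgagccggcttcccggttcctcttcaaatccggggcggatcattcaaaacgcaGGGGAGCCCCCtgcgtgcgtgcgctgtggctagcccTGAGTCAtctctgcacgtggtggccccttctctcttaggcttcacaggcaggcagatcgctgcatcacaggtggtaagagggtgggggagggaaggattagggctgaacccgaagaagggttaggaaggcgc
Fas: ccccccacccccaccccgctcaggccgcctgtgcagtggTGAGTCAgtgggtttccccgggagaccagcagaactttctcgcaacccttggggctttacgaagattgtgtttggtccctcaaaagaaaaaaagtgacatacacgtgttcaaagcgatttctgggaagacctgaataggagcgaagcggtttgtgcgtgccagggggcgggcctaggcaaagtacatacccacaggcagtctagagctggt

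Tnfrsf8 held a match to the NF-κB consensus from -168 to -158, in overlapping copies that read on both strands, and an AP-1 motif from -132 to -126. Fas held an AP-1 motif from -211 to -205, and Tnfrsf1b held neither motif. Both strands were searched in the windows of 9 receptors with a RefSeq entry, also for the RUNX letters TGTGGT and the T-box letters TCACACC, which none of them held. The only other matches were in the second promoter of Tnfrsf9, with NF-κB letters from -43 to -33 and an AP-1 motif from -15 to -9. Over 32851 mouse promoter windows of this length, 7.25% held the NF-κB consensus, 6.75% AP-1, 14.0% RUNX and 3.33% T-box. The AP-1 letters thus stood in windows of Tnfrsf8 and Tnfrsf9, which rose, and of Fas, which fell, and the windows give the letters only. For Tnfrsf9 the first window held no match, and 81 bases of the second lay in annotated exons. The windows of Tnfrsf4 and Tnfrsf18, which fell, held no match, and 166 and 158 of their 250 bases lay in annotated exons.

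Among the costimulatory receptors, Tnfrsf4 and Tnfrsf18 fell and Tnfrsf8 and Tnfrsf9 rose. Tnfrsf4 (OX40; Entrez gene 22163, chromosome 4, 156013843 to 156016612) supports the survival of activated T cells. It stood at 8.05, 9.01 and 11.2 CPM in Veh replicates 1 to 3 and at 6.41, 5.47 and 5.42 CPM in the GSK replicates. All GSK values lay below all Veh values, with Veh replicate 3 the highest. The 1.64-fold decrease (log2 fold change -0.71, SE 0.15, adjusted p = 0.0038) was the only one of the panel past 1.5-fold, and without Veh replicate 3 it still passed the adjusted p but stood at -0.57, under 1.5-fold. In the RefSeq annotation the first bases of Tnfrsf4 overlap Sdf4, a gene on the same strand with a mean of 285 CPM in Veh and 265 CPM in GSK, which did not pass the test (log2 fold change -0.10, adjusted p = 0.057).

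Tnfrsf18 (GITR; Entrez gene 21936, chromosome 4, 156026164 to 156028895) encodes a costimulator that is also abundant on regulatory T cells. Its values were 121, 116 and 117 CPM in Veh and 93.6, 89.8 and 83.6 CPM in GSK. The Veh samples agreed closely (118 ± 2.69 CPM, SD, n = 3) and every GSK sample lay below them (89.0 ± 5.01). With a log2 fold change of -0.41 (SE 0.051, adjusted p = 1.1e-04), this was the member with the smallest p, ranked 251 of the tested genes, and it passed in every alternative except the test against 1.5-fold. Among the CD4 and regulatory T cell markers, whose summed level was lower in GSK as given above, Ikzf2 also fell (log2 fold change -0.71, adjusted p = 3.7e-04) and Foxp3 did not pass (0.12, adjusted p = 0.82), and their part in the Tnfrsf18 difference was not tested. Tnfrsf18 shares 414 exon bases with the antisense gene Gm16008, which has no row in the count table. Over the 6 samples the 5 genes at 10 CPM or more whose log2 CPM followed Tnfrsf18 most closely were Pgk1 (r = 0.9985), Tmem59 (0.9984), Gys1 (0.998), Srpk1 (0.9977) and Plp2 (0.9976). These are descriptive values over samples of both groups, and all 5 genes were lower in GSK, with log2 fold changes from -0.85 (Gys1) to -0.22 (Plp2).

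Tnfrsf8 (CD30; Entrez gene 21941, chromosome 4, 145267137 to 145315164), a receptor of activated lymphocytes, held 43.1, 34.2 and 49.6 CPM in Veh and 56.4, 57.3 and 57.5 CPM in GSK. The Veh samples were spread widely (SD 7.70) and the GSK samples hardly at all (SD 0.558), and all GSK values were above all Veh values. The increase was 1.35-fold (log2 fold change 0.43, SE 0.11, adjusted p = 0.018). It missed the threshold without Veh replicate 1 (adjusted p = 0.06), GSK replicate 1 (0.055), GSK replicate 2 (0.075) or GSK replicate 3 (0.082), each time with a log2 fold change of 0.42 to 0.45.

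Tnfrsf9 (4-1BB; Entrez gene 21942, chromosome 4, 150914562 to 150946102), whose signalling domain is used in chimeric antigen receptors, was the most abundant member. It held 312, 341 and 351 CPM in Veh and 394, 348 and 382 CPM in GSK, and the groups overlapped because GSK replicate 2 lay below Veh replicate 3. The difference was 1.12-fold (log2 fold change 0.16, SE 0.055, adjusted p = 0.040). It missed the threshold with the replicate number as a block (adjusted p = 0.065) and without Veh replicate 1 (0.16), Veh replicate 2 (0.068), GSK replicate 1 (0.19) or GSK replicate 3 (0.11).

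Cd27 (Entrez gene 21940, chromosome 6, 125232622 to 125237010), a receptor that resting and memory T cells carry and whose ligand is CD70, held 143, 119 and 129 CPM in Veh and 106, 125 and 87.5 CPM in GSK. The groups overlapped through GSK replicate 2, which lay above Veh replicate 2. The log2 fold change was -0.30 (SE 0.14, adjusted p = 0.17). Without GSK replicate 2 it was -0.44 with an adjusted p of 0.022. Cd27 shares 129 exon bases with Mir8113, which has no row in the count table.

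Of the receptors for TNF itself, Tnfrsf1b rose and Tnfrsf1a did not pass. Tnfrsf1b (TNFR2; Entrez gene 21938, chromosome 4, 145213463 to 145246870), which lacks a death domain and is prominent on activated T cells, held 170, 154 and 153 CPM in Veh and 182, 182 and 187 CPM in GSK. The GSK samples lay close together and all above Veh, with a 1.15-fold increase (log2 fold change 0.20, SE 0.049, adjusted p = 0.0071). Tnfrsf1a (TNFR1; Entrez gene 21937, chromosome 6, 125349362 to 125362484), which carries a death domain, held 48.3, 40.0 and 42.1 CPM in Veh and 36.0, 43.9 and 41.5 CPM in GSK. These groups overlapped (log2 fold change -0.10, SE 0.087, adjusted p = 0.40). The ratio of Tnfrsf1b to Tnfrsf1a counts was 3.53, 3.85 and 3.62 in Veh and 5.04, 4.13 and 4.50 in GSK. The groups did not overlap in this ratio, nor did they in the CPM of Tnfrsf1b alone or of 46.7% of all tested genes. The difference between the receptors was not tested.

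Tnfrsf11a (RANK; Entrez gene 21934, chromosome 1, 105780718 to 105847981), best known as the receptor that drives osteoclast formation, was close to the limit of detection. It held 10, 8 and 4 reads in Veh (0.544, 0.429 and 0.210 CPM) and 18, 23 and 15 reads in GSK (0.945, 1.16 and 0.782 CPM). All GSK values were above all Veh values, and the fitted increase was 2.43-fold (log2 fold change 1.28, SE 0.43, adjusted p = 0.036). Only in GSK did all 3 samples reach the read minimum that selects genes for testing, which favours a gene that was higher in GSK, and among the other 9 receptors 4 rose. DESeq2 gave an adjusted p of 0.11, and in edgeR the gene missed the threshold without Veh replicate 2 (0.074), Veh replicate 3 (0.13), GSK replicate 1 (0.089) or GSK replicate 2 (0.1).

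Of the death receptors, Fas fell and Tnfrsf10b rose. Fas (Entrez gene 14102, chromosome 19, 34290666 to 34327772), which triggers apoptosis of activated T cells when it binds Fas ligand, held 22.1, 21.1 and 20.2 CPM in Veh and 17.0, 17.9 and 13.6 CPM in GSK. The groups did not overlap, and GSK replicate 3 was the lowest. The decrease was 1.31-fold (log2 fold change -0.39, SE 0.10, adjusted p = 0.012). Tnfrsf10b (Entrez gene 21933, chromosome 14, 69767472 to 69784411), the mouse death receptor for TRAIL, held 12.9, 15.4 and 13.3 CPM in Veh and 17.7, 19.5 and 19.0 CPM in GSK. Every GSK sample lay above every Veh sample (1.35-fold, log2 fold change 0.43, SE 0.095, adjusted p = 0.0043). Both genes passed the test whichever single sample was left out.

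**Figure D2:**
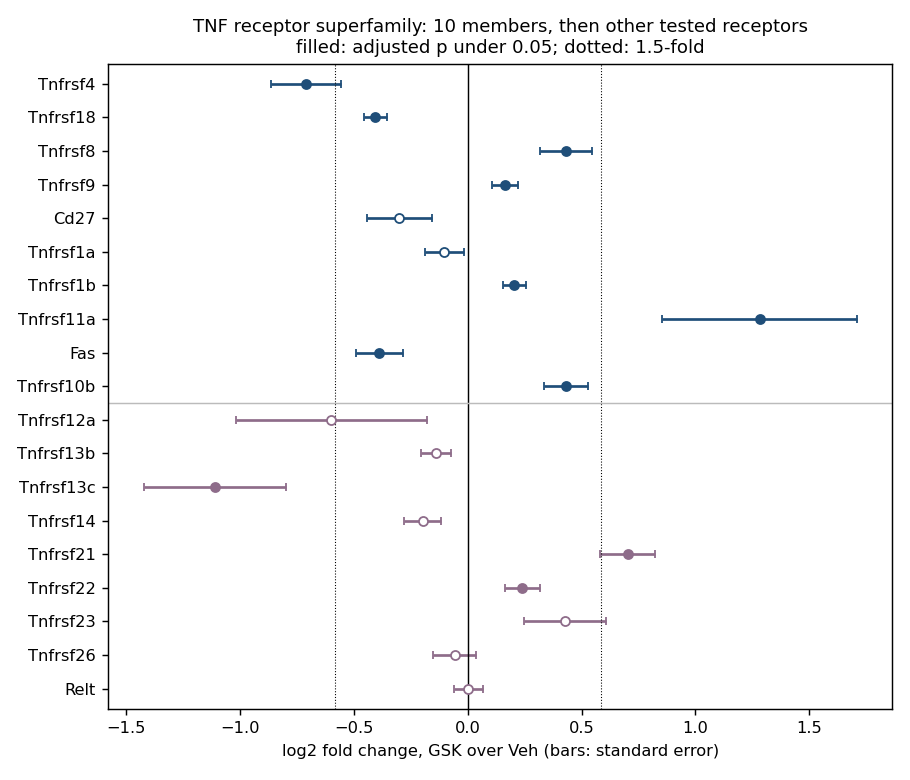
Log2 fold change of GSK over Veh (horizontal axis) for the 10 receptors, in blue, and for 9 other tested receptors of the superfamily, in purple, with bars for the standard error, filled points for an adjusted p under 0.05 and dotted lines at a fold change of 1.5. Of the 10, only Tnfrsf4 (-0.71) and Tnfrsf11a (1.28) lie beyond the dotted lines, and the bar of Tnfrsf11a is the widest.

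Per kilobase of exon, Tnfrsf9 was the highest receptor in both groups. In Veh the order was Tnfrsf9 (123 CPM per kb), Tnfrsf18 (77.4), Cd27 (56.0), Tnfrsf1b (41.7), Tnfrsf1a (16.8), Tnfrsf8 (12.2), Fas (10.2), Tnfrsf4 (6.91), Tnfrsf10b (2.55) and Tnfrsf11a (0.066). The ranges of the 3 Veh samples overlapped between neighbours only for Tnfrsf8 and Fas. In GSK, Tnfrsf1b (48.0 CPM per kb) overlapped Cd27 (45.5), Tnfrsf8 (16.5) overlapped Tnfrsf1a (15.6), and Tnfrsf8 stood clear of Fas (7.83). Tnfrsf18, at 58.4 CPM per kb in GSK, stayed in the second place. Tnfrsf4 (4.22 CPM per kb in GSK) and Tnfrsf10b (3.44) drew closer without overlapping. Tnfrsf9 alone took 38.4% of the panel's normalized counts in Veh and 42.0% in GSK on average, whereas the share of Tnfrsf18 was 13.5% in Veh and 9.97% in GSK.

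**Figure D3:**
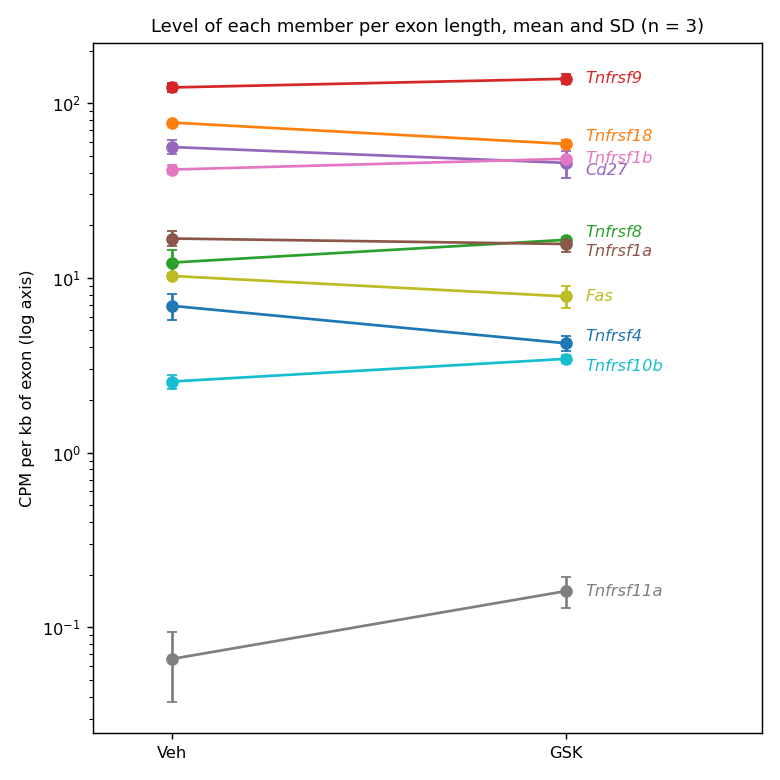
Mean CPM per kilobase of exon (log axis) of each receptor in Veh and GSK, with the SD of 3 samples as bars and a line joining the 2 groups. Tnfrsf9 is at the top in both groups and Tnfrsf11a far below the rest, and the lines of Tnfrsf8 and Tnfrsf1a cross.

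Of 10 genes that encode ligands of these receptors, 8 were tested, 5 rose and 0 fell in edgeR. Over all tested genes, 16.6% were higher and 15.5% lower. The number lower was also 0 at an unadjusted p under 0.05 and in DESeq2, and the median log2 fold change of the 8 was 0.71. The ligand shared by both TNF receptors, Tnf, held 30.0, 30.9 and 27.9 CPM in Veh and 67.6, 59.7 and 71.8 CPM in GSK. Lta, the other ligand of both, held 74.5, 64.2 and 52.7 CPM in Veh and 169, 140 and 192 CPM in GSK. Neither gene had a GSK value near its Veh values, with log2 fold changes of 1.17 (SE 0.076) and 1.39 (SE 0.18). The OX40 ligand Tnfsf4 held 3.70, 4.61 and 3.73 CPM in Veh and 8.87, 7.95 and 7.40 CPM in GSK (log2 fold change 1.01, SE 0.16), while its receptor Tnfrsf4 fell. Fasl held 67.6, 66.1 and 60.5 CPM in Veh and 83.0, 95.4 and 104 CPM in GSK (log2 fold change 0.54, SE 0.078), while its receptor Fas fell. In both pairs the receptor and the ligand went in opposite directions. The 3 GSK values of each gene lay entirely on one side of the 3 Veh values, as for 46.7% of all tested genes.

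Tnfsf11 (RANKL) held 6.47, 6.33 and 5.78 CPM in Veh and 11.6, 9.57 and 13.1 CPM in GSK (log2 fold change 0.88, SE 0.14). Its receptor Tnfrsf11a was higher too, but reached the read minimum in all 3 samples only in GSK, which favours a higher GSK value. It also missed the threshold in DESeq2 (adjusted p = 0.11). Tnfsf8, the CD30 ligand, had a log2 fold change of 0.31 and an adjusted p of 0.098, and passed with DESeq2 (0.0051), with the replicate block (0.017), without robust dispersion (0.033) and without Veh replicate 1 (0.011). The 4-1BB ligand Tnfsf9 (6.78 ± 0.869 CPM in Veh and 6.26 ± 1.37 in GSK, SD, n = 3, adjusted p = 0.65) and the TRAIL gene Tnfsf10 (38.3 ± 4.74 and 38.5 ± 1.06 CPM, adjusted p = 0.96) did not pass. Cd70, the CD27 ligand, reached at most 0.0536 CPM and was not tested, and the GITR ligand gene Tnfsf18 had no row in the table.

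**Figure D4:**
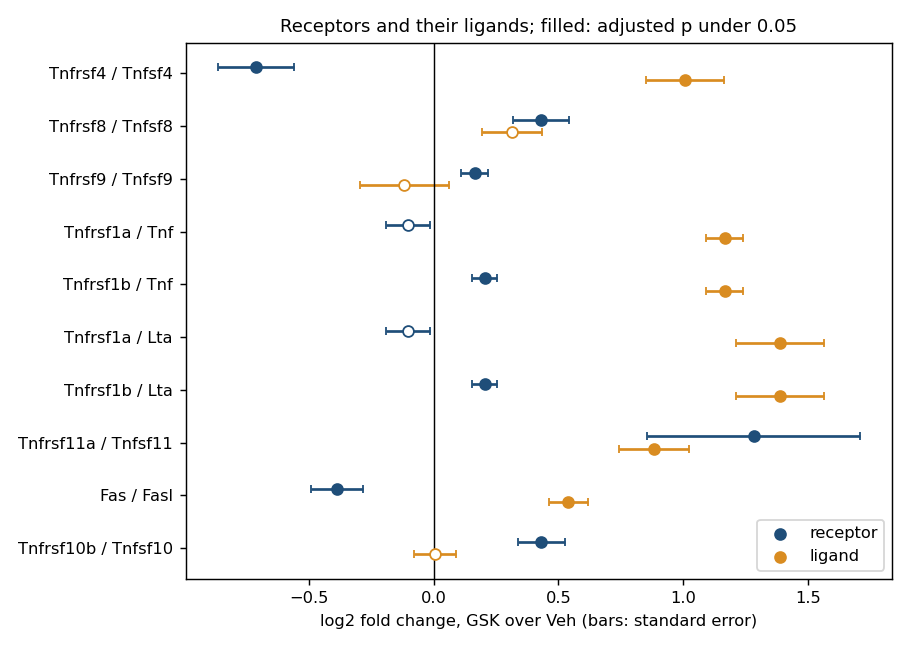
Log2 fold change of GSK over Veh (horizontal axis) for each receptor with a tested ligand, in blue, and that ligand, in orange. Bars show the standard error and filled points an adjusted p under 0.05. Tnfrsf18 and Cd27, whose ligands were not tested, are not drawn. Tnfrsf4 and Tnfsf4 lie on opposite sides of 0, as do Fas and Fasl, whereas Tnfrsf11a, Tnfrsf1b and their ligands lie to the right. Tnfrsf11a was near the limit of detection and reached the read minimum in every sample only in GSK.

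Of 18 other receptors of the superfamily, 9 were tested, 2 rose and 1 fell, near the shares of all tested genes (16.6% and 15.5%). Tnfrsf21, a death-domain receptor, held 7.78, 8.80 and 7.30 CPM in Veh and 11.8, 12.7 and 14.3 CPM in GSK (log2 fold change 0.70, SE 0.12, adjusted p = 9.9e-04). Tnfrsf22, a mouse decoy receptor for TRAIL, rose from a mean of 28.4 to 33.6 CPM (log2 fold change 0.24, adjusted p = 0.028), and missed the threshold in DESeq2 (0.053) and without Veh replicate 1 (0.12), Veh replicate 2 (0.07), GSK replicate 2 (0.067) or GSK replicate 3 (0.066). Tnfrsf13c, the BAFF receptor of B cells, fell from a mean of 2.05 to 0.946 CPM (log2 fold change -1.11, adjusted p = 0.016) and missed the threshold without Veh replicate 2 (0.09) or GSK replicate 1 (0.07). Of the B cell markers tested, Cd79b had a log2 fold change of -0.41 (adjusted p = 0.070) and Cd22 of 2.65, where Cd22 reached the read minimum in all 3 samples only in GSK, and their part in this difference was not tested.

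The genes around the chromosome 4 pairs did not all move with them. Within 50 kb of Tnfrsf4 and Tnfrsf18, C1qtnf12 fell (log2 fold change -0.71, adjusted p = 0.0081), Sdf4 and B3galt6 did not pass, and Ttll10 was not tested. Within the same distance of Tnfrsf1b and Tnfrsf8, the tested gene besides them was Vps13d, which fell (log2 fold change -0.26, adjusted p = 0.0033) while the receptors rose. Cd27 and Tnfrsf1a lie on chromosome 6 with Ltbr, the lymphotoxin beta receptor gene, between them, and Ltbr was not tested (at most 0.435 CPM).

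Downstream of the receptors, 2 of 13 genes of TRAF adaptors and their partners rose and 2 fell, none by 1.5-fold, which is near the shares of all tested genes (16.6% higher and 15.5% lower). Traf4 had a log2 fold change of 0.48 (SE 0.075) and Traf3, a brake on the noncanonical NF-κB pathway, of 0.21 (SE 0.055). Traf1, an adaptor of OX40 and 4-1BB among others, fell by 0.22 on the log2 scale and Birc2, a ubiquitin ligase bound to TRAF2, by 0.29. Of these, Traf1 missed the threshold without Veh replicate 1 (adjusted p = 0.088), GSK replicate 1 (0.087) or GSK replicate 3 (0.058), and Traf3 without Veh replicate 3 (0.059). Traf2, Traf5, Traf6, Tradd, Ripk1, Birc3, Map3k14, Tank and Siva1 did not pass.

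In the NF-κB core, 4 of 15 genes rose and 3 fell, near the shares of genes at 10 CPM or more (20.2% higher and 16.5% lower). Tnfaip3, a deubiquitinase that restrains NF-κB, held 48.7, 47.3 and 56.0 CPM in Veh and 33.4, 28.3 and 29.1 CPM in GSK (log2 fold change -0.74, SE 0.083, adjusted p = 5.0e-05). Otulin, which removes linear ubiquitin chains, held 79.6, 73.7 and 75.6 CPM in Veh and 121, 117 and 132 CPM in GSK (log2 fold change 0.69, SE 0.055, adjusted p = 3.6e-06). Both restrain ubiquitin-dependent signalling, and they moved in opposite directions, each past 1.5-fold. Among the subunits, Nfkb1 fell by 0.29 on the log2 scale and Rel, the c-Rel subunit, rose by 0.29. The kinase genes also split, with Chuk at 0.25 and Ikbkb at -0.23, and the co-activator Bcl3 rose by 0.44.

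Among 12 genes of death signalling, 5 rose and 3 fell, none by 1.5-fold, beside 16.6% and 15.5% of all tested genes. Among genes at 10 CPM or more, where all 12 lie, the shares were 20.2% and 16.5%. Those that rose included Bid (log2 fold change 0.35), which links death receptors to mitochondria, Mlkl (0.31), the pore former of necroptosis, and Fadd (0.28), the adaptor that Fas and the TRAIL receptor bind. The genes that fell were Cflar (-0.16), an inhibitor of caspase-8 activation, Xiap (-0.15), an inhibitor of caspases, and Ripk3 (-0.19), the kinase upstream of Mlkl. The numbers higher and lower were 3 and 0 without Veh replicate 1, 6 and 1 without Veh replicate 2, 3 and 2 without Veh replicate 3, 3 and 1 without GSK replicate 1, 5 and 3 without GSK replicate 2, and 4 and 0 without GSK replicate 3. DESeq2 and the replicate block each gave 3 higher. Fadd missed the threshold in DESeq2 (adjusted p = 0.071), with the block (0.057) and without Veh replicate 1 (0.062), Veh replicate 3 (0.14), GSK replicate 1 (0.1) or GSK replicate 3 (0.089). Cflar missed it in DESeq2 (0.059) and without Veh replicate 1 (0.14), Veh replicate 2 (0.11), GSK replicate 1 (0.13) or GSK replicate 3 (0.1). Xiap missed it with the block (0.068) and without Veh replicate 1 (0.15), Veh replicate 3 (0.074), GSK replicate 1 (0.11) or GSK replicate 3 (0.074), and Ripk3 without Veh replicate 1 (0.093), Veh replicate 2 (0.1) or GSK replicate 3 (0.11). Bid and Mlkl passed whichever sample was left out.

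**Figure D5:**
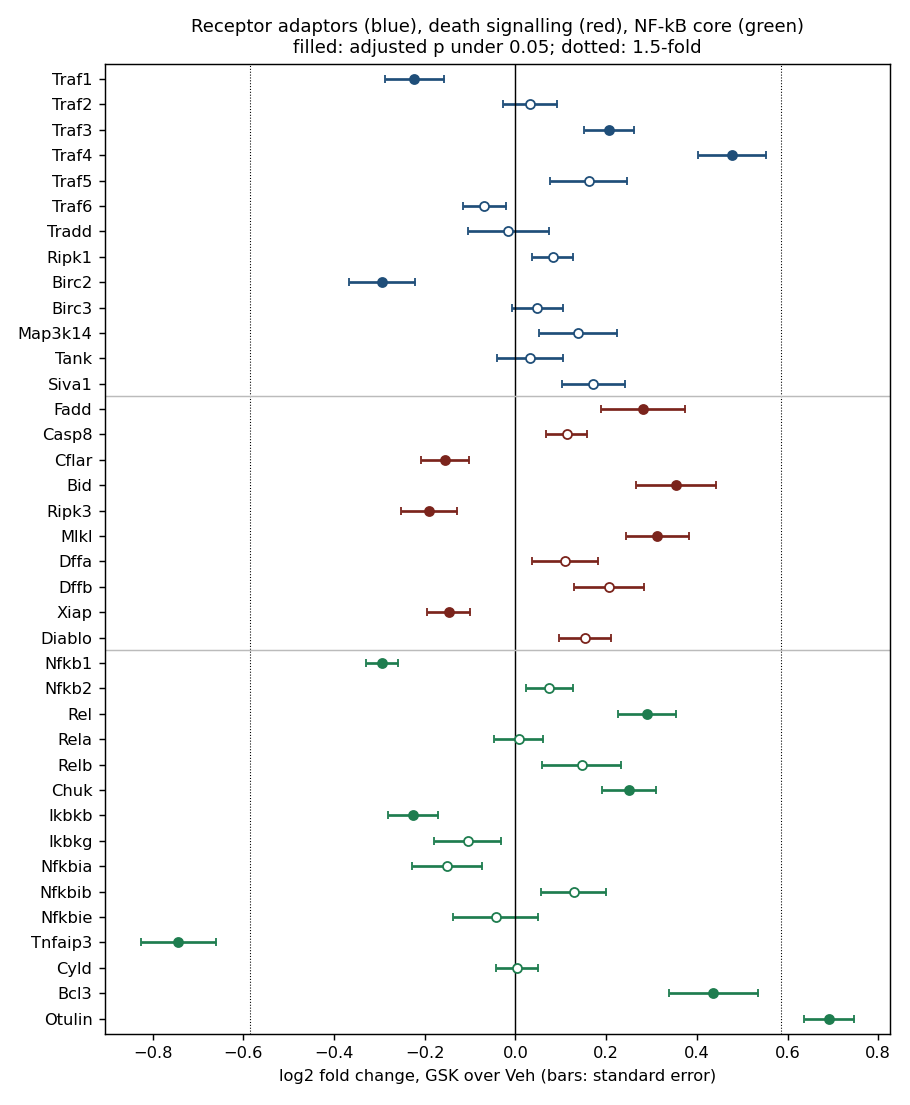
Log2 fold change of GSK over Veh (horizontal axis) for receptor adaptors (blue), 10 death signalling genes (red) and NF-κB core genes (green), with bars for the standard error, filled points for an adjusted p under 0.05 and dotted lines at a fold change of 1.5. Most points lie within 0.4 of 0, and Tnfaip3 (-0.74) and Otulin (0.69) are the only ones beyond the dotted lines.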

How the data were processed

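Read counts per gene were deposited by the authors for 6 samples. They trimmed reads with Trimmomatic, mapped them to GRCm38 with HISAT2 2.1.0 and counted them with HTSeq 0.11.2 (stranded mRNA kit, with annotation release and strand setting not given in the sources used here). Without a known strand setting, reads of antisense partners cannot be told apart. Deposited columns of gene annotation were not used beyond symbols and Entrez identifiers.

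Counts were analysed in R 4.3.3 with edgeR 4.0.16: filterByExpr, TMM, trended dispersion, robust glmQLFit and glmQLFTest of GSK against Veh, with Benjamini-Hochberg adjustment over all 11698 tested genes. A gene passed at an adjusted p under 0.05 and was called when its fold change also exceeded 1.5. CPM used TMM-scaled library sizes. Exon lengths and gene positions came from GENCODE vM21, promoters from RefSeq (GRCm38.p6). The script was tested on simulated data. With 3 samples a group, an exact permutation test of a single value cannot go below p = 0.1, so none was used.

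The text names all 10 members, genes of the other lists that passed, every ligand, Kdm1a, and the 5 genes most correlated with the member of smallest p. Neighbours within 50 kb, and other genes named outside that rule, were chosen after their values were seen. The members and lists were chosen with earlier results of these data known. Alternatives were DESeq2 1.42.0, RLE size factors, no filter, a mean count of at least 50, a replicate block, a test against 1.5-fold, no robust fit, levels without exon length, and each sample left out. Some genes of the lists enter the counts but are not reported here by name. P-values weigh the difference between the groups against the spread between these samples.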

Additional observations from a re-analysis of the deposited data

How the results depend on the processing

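The counts in each list were compared under 13 alternatives to the edgeR fit: 135 of 182 stayed within 1.5 times, and 438 of 531 single-gene values kept their direction and side of the threshold. When folds were tested against 1.5, every count named here was 0 except 1 ligand higher. At an adjusted p under 0.05, DESeq2 put 4 members and 3 death signalling genes higher. A mean count of at least 50 left 4 members higher and 0 other receptors lower, but removed Tnfrsf11a and Tnfrsf13c before the test. DESeq2 and this filter each left 0 members higher when a fold change over 1.5 was also required. The replicate block gave 2 other receptors lower and 3 death signalling genes higher.

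Leaving out 1 sample at a time gave 2 to 4 members higher, 3 to 4 lower, 0 to 1 called higher and 0 to 1 called lower. The same gave 1 to 3 other receptors higher and 0 to 2 lower, 5 to 6 ligands higher, 1 to 2 adaptors higher and 1 to 2 lower, 3 to 6 death signalling genes higher and 0 to 3 lower, with 4 NF-κB genes higher and 3 lower each time. Tnfsf10, at 0.0063 on the log2 scale, turned to -0.0020 with a mean count of at least 50 and ranged from -0.092 (without Veh replicate 3) to 0.072 with single samples left out, and Tnfsf9, at -0.12, ranged from -0.24 to 0.052 (without GSK replicate 2). The cause was not tested, and neither gene passed in any of these fits.

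By CPM without exon length, Tnfrsf1b ranked 2 and Tnfrsf18 ranked 4 in both groups, instead of 4 and 2 in Veh and 3 and 2 in GSK. The study states that the cells came from 3 separate OT1 mice, and does not say whether both groups share them. The labels do not say that equal replicate numbers share a mouse. Deviations of same-numbered samples correlated at -0.052, -0.081 and 0.16, and 3 such values cannot settle it. In the main fit the numbers were not taken as pairs. With the block, 1703 genes were higher and 1600 lower instead of 1941 and 1819, and of the members that passed, Tnfrsf9 no longer did (adjusted p = 0.065). At the depth of these libraries, Tnfrsf11a rests on 4 to 23 reads per sample, and Cd70 could not be tested.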

Other observations

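Among receptors usually associated with B cells, Tnfrsf13b was clearly present in these T cell cultures. Others were low, with Tnfrsf13c, Cd40 and Tnfrsf17 at no more than 2.74, 0.26 and 0.052 CPM over the 6 samples. Tnfrsf13b, the TACI receptor, held 40.5, 40.2 and 44.8 CPM in Veh and 38.5, 36.8 and 38.7 CPM in GSK, and did not pass the test (log2 fold change -0.14, SE 0.065, adjusted p = 0.12). In the same samples the B cell genes Cd79a, Ms4a1 and Pax5 reached at most 0.557, 0.417 and 0.304 CPM. Cd79b held 4.64 to 7.56 CPM over the 6 samples, and Cd22 0.218 to 0.590 CPM in Veh and 2.29 to 2.84 CPM in GSK. The part of B cells in the Tnfrsf13b reads was not tested.

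The receptor cluster on chromosome 7 that holds the TRAIL decoy receptor gene Tnfrsf22 was also expressed. Tnfrsf26, Tnfrsf22 and Tnfrsf23 are adjacent on the minus strand, with gaps of 6.083 and 16.147 kb. Tnfrsf26 held 57.8 to 76.3 CPM over the 6 samples. Tnfrsf23 held 12.1 to 13.1 CPM in Veh and 12.7, 22.2 and 16.2 CPM in GSK, with GSK replicate 2 the highest and an adjusted p of 0.10. Tnfrsf14 (65.7 to 89.9 CPM) and Relt (36.9 to 40.4 CPM), did not pass the test either.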
